A study of Homo sapiens with 24 samples.

Results

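The nuclear genes for subunits of the mitochondrial respiratory chain and ATP synthase were followed in 2 lung adenocarcinoma lines treated with almonertinib, paclitaxel or both. A gene was included when its symbol matched NDUFA, NDUFB, NDUFC, NDUFS or NDUFV with a number, a UQCR symbol, SDHA to SDHD, COX4 to COX8 with an isoform letter or number, CYC1, or an ATP5F1, ATP5M or ATP5P symbol, and it had at least 10 raw counts over all libraries. Of 19702 genes in the count table, 83 matched and 79 had enough counts. They comprised 36 genes of complex I, 4 of complex II, 10 of complex III, 12 of complex IV and 17 of complex V. NDUFA4 was counted with complex IV and CYC1 with complex III. The 4 genes left out were COX6A2, COX7A1, COX7B2 and ATP5MGL, with at most 1 raw count each over 24 libraries. Subunit and related genes whose symbols fall outside these patterns, such as COX4I1 and NDUFAB1, are treated separately below.

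RNA-seq libraries came from 2 established lines with activating EGFR mutations, PC9 and H1975, of which H1975 also carries the gatekeeper resistance mutation. PC9 cells received 2 nM almonertinib, 0.3 nM paclitaxel, the combination, or no drug as control. H1975 cells received 1 nM almonertinib, 1 nM paclitaxel, the combination, or no drug as control. Exposure lasted 24 h, each of the 8 groups had 3 libraries, and the labels do not state the doses within the combination. Almonertinib is a covalent inhibitor of mutant EGFR, and paclitaxel is a taxane that stabilises microtubules. Because the single doses differed between lines, line and dose cannot be told apart where the lines are compared. The labels do not say that the 3 repeats of a group were separate cultures, so the p-values measure the spread between libraries, which may be technical.

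Complexes I and II pass electrons from NADH and succinate to ubiquinone, complex III passes them to cytochrome c and complex IV to oxygen. Complexes I, III and IV pump protons as they do so, and complex V, the ATP synthase, uses the proton gradient to make ATP. Most subunits are encoded in the nucleus and imported, while a small core of complexes I, III, IV and V is encoded in mitochondrial DNA, so that both genomes supply each of these complexes. In cultured tumour cells the chain also regenerates oxidised cofactors for biosynthesis. Nuclear respiratory factor 1 and the ETS factor GABP are known activators of many of these genes.

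Library totals ran from 14232299 to 24245314 counts. Levels are CPM, the count scaled by edgeR to a common library size, and levels of different genes are compared per kilobase of transcript. Of the 79 genes, 76 passed the filter on low counts in every fit. NDUFV2, NDUFA7 and COX8C, with 44, 88 and 34 raw counts over all libraries, did not pass and were not tested. A gene was called, and is said to have risen or fallen, at an edgeR quasi-likelihood p under 0.05 after Benjamini-Hochberg adjustment over all genes tested. Differences are log2 fold changes with a standard error. Epithelial markers were present in every library (EPCAM at 87.1 to 256 CPM), COL1A2, LUM and PDGFRA were at 0 in all libraries, and PTPRC, CD3E, LYZ and DCN did not exceed 0.0486 CPM. In bulk RNA, fewer cells of a type and less RNA per cell cannot be told apart.

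The share of counts followed the GC content of genes in the opposite way to both other libraries of the group in 6 libraries, by the sign of Spearman's rho across genes. In 4 of them rho also stood more than 0.4 from both others, and these are the libraries that stand apart here: H1975 almonertinib 1, paclitaxel 1 and control 3, and PC9 almonertinib 3. The nearest of these to the threshold was H1975 paclitaxel 1, with a gap of 0.493, and the 2 outside it were H1975 combination 3 and PC9 combination 2, with gaps of 0.308 and 0.299. The threshold was chosen after the data were seen, and results that rest on the 4 libraries are given with and without them. Transcripts of the 79 genes are short, with a median of 705 bases against 2225 for genes with at least 10 counts. Fits that remove each library's trend with GC content and transcript length are therefore given beside the counts where the split of higher and lower calls moved by over 10 percentage points, and beside a gene where they ended its call or moved its value by over 1.5 times. A call of a named gene that a fit without 1 library lost is given with that library and the value without it.

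The 79 genes together took 1.17% to 2.12% of all counts in a library. In PC9 the share was 1.36 to 1.52% in almonertinib libraries, 1.32 to 1.35% in paclitaxel libraries, 1.17 to 1.25% in combination libraries and 1.31 to 1.35% in controls. All 3 combination libraries therefore lay below the controls, and all 3 almonertinib libraries lay above them. In H1975 the share was 1.67 to 1.86% in almonertinib libraries, 1.55 to 2.12% in paclitaxel libraries, 1.58 to 1.66% in combination libraries and 1.56 to 1.7% in controls. The paclitaxel range of H1975 enclosed both the combination and the control ranges.

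The promoters of 4 genes are shown because these genes carry the contrasts described below: COX6B2 and COX6B1, the testis and ubiquitous forms of one subunit of which the first fell in every treated PC9 group, SDHB, which also fell in each, and COX6A1, which rose under almonertinib. Each sequence is the 250 bases before the RefSeq start (GRCh38.p14), 5′ to 3′ on the strand of the gene: chr19:55354720-55354969 on the minus strand for COX6B2, chr19:35648073-35648322 on the plus strand for COX6B1, chr1:17054033-17054282 on the minus strand for SDHB and chr12:120437863-120438112 on the plus strand for COX6A1. Capitals mark matches to a core of the nuclear respiratory factor 1 site, GCATGCGC or its complement GCGCATGC, and to the ETS core CCGGAAG or its complement CTTCCGG. Both strand forms of the first motif can overlap each other, and no 2 matches overlap in these windows.
COX6B2: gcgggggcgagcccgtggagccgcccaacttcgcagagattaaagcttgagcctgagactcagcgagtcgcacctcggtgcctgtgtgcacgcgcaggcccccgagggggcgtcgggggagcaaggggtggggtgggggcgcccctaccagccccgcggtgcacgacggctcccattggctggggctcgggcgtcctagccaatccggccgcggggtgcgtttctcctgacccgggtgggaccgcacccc
COX6B1: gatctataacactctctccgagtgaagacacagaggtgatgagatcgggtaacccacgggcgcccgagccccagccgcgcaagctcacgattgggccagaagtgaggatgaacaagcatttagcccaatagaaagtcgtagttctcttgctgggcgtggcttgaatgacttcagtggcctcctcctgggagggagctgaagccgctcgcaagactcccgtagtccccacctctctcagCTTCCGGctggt
SDHB: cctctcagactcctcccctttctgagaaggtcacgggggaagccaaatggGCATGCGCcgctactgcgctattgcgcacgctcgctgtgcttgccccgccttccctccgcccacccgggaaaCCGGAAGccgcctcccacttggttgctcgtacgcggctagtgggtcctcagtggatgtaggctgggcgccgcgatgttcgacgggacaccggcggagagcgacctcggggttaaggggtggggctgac
COX6A1: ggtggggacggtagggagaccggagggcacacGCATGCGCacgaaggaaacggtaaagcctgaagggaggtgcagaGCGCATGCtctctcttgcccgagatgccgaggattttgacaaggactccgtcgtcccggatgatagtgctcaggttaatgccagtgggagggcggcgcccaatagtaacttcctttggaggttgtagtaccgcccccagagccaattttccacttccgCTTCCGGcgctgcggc
The window of COX6B2 held neither motif, that of COX6B1 held 1 ETS core, that of SDHB held 1 of each, and that of COX6A1 held 2 of the first and 1 of the second. SDHB and COX6A1 thus shared both motifs and moved in opposite directions under almonertinib in PC9. RefSeq windows were matched for 64 of the 79 genes. The first core was in 12 of them (18.8%), against 2.81% of all 27305 windows and 4.33% of the 11927 windows of genes with at least 10 counts. The ETS core was in 17 of the 64 (26.6%), against 8.82% of all windows and 14.5% of those of measured genes. At least 1 motif was in 24 of the 64 (37.5%), against 11.1% and 18%. Among the 61 tested genes with a window, the median PC9 fold changes of the 24 with a motif were 0.12 under almonertinib, −0.32 under paclitaxel and −0.26 under the combination. For the 37 without a motif they were 0.13, −0.21 and −0.20 in the same order.

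The level of the genes in untreated cells was compared first. Per kilobase, NDUFS8, a core iron-sulfur subunit of complex I, was the highest of its complex in both lines, at 1104 ± 35.8 CPM per kb in PC9 controls and 1247 ± 279.8 in H1975 controls (SD, n = 3 libraries each). COX5B, which binds zinc in complex IV, stood at 1035 ± 82.9 and 992 ± 229.9 CPM per kb in the same order, and these 2 groups do not differ beyond their spread. ATP5F1B, the catalytic beta subunit of ATP synthase, was lower in PC9 (767 ± 42.7 CPM per kb) than in H1975 (1394 ± 145). The lowest tested genes of their complexes were SDHA, UQCRHL, COX6B2 and ATP5PO in both lines, while in complex I they were NDUFA11 in PC9 and NDUFA9 in H1975. SDHA, the flavoprotein of complex II, had 1.99 ± 0.505 CPM per kb in PC9 controls and 2.11 ± 0.362 in H1975 controls, although its partner SDHB had 84.8 ± 1.42 and 75.2 ± 2.99. How multi-mapped reads were treated is not given in the sources used here, and SDHA has near-identical pseudogene copies, so its counts are uncertain. NDUFV2, NDUFA7, NDUFA11, NDUFA13, NDUFB8, NDUFA9, NDUFC2, COX6B2, ATP5PO and ATP5MG also had low levels and share at least 5% of their exon bases with another GENCODE v29 gene on the same strand, so their counts may miss reads.

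In PC9 controls against H1975 controls, 17 of 76 genes were higher and 22 lower, where 34.9% of all 13380 genes tested were higher and 33.8% lower. With the length and GC trend removed, 20 were higher and 40 lower (all genes 33.9% and 42.1%), and the median was −0.37 in place of −0.14, beside −0.13 in place of −0.02 for all genes. Without the 4 libraries that stand apart, 19 were higher and 37 lower (all genes 37.6% and 38%). NDUFA5, an accessory subunit of the ubiquinone-reducing module, had 6.64, 7.79 and 6.66 CPM in PC9 controls and 38.7, 32.2 and 45.5 CPM in H1975 controls. It was the member with the largest difference (−2.47 ± 0.19; −1.76 with the trend removed), and the lines did not overlap. NDUFB6, an accessory subunit of the distal membrane arm, had 14.4, 13.3 and 16.7 CPM in PC9 controls against 53.4, 62.2 and 54.2 CPM in H1975 controls (−1.93 ± 0.17).

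In complex II, SDHD and SDHC, the membrane anchors, were lower in PC9 by 0.67 ± 0.13 and 0.41 ± 0.14 (−1.05 and −0.75 with the trend removed). In complex V, ATP5MJ, a small subunit of the membrane part, was lower by 1.52 ± 0.17 and ATP5F1D, the delta subunit of the central stalk, by 1.42 ± 0.20, while ATP5F1E, the epsilon subunit, was higher by 0.93 ± 0.23 (1.45 with the trend removed) and ATP5MK by 0.53 ± 0.22. NDUFS5 and NDUFA1, accessory subunits of complex I, were higher in PC9 by 1.19 ± 0.21 and 1.17 ± 0.20. UQCRH, the hinge protein of complex III, had 479, 467 and 517 CPM in PC9 controls and 169, 217 and 148 CPM in H1975 controls, a difference of 1.46 ± 0.21. UQCRHL, a near-identical copy of UQCRH that can share its reads, differed by 1.29 ± 0.23 at 14.5 ± 0.813 CPM in PC9 controls and 5.96 ± 1.4 CPM in H1975 controls. In complex IV, COX7C and COX7A2 were higher in PC9 by 0.60 ± 0.19 and 0.54 ± 0.20, and NDUFA4 was lower by 0.86 ± 0.20. After trend removal NDUFA1 was at 0.75, COX7C at 0.95 and NDUFA4 at −0.49, the last not called. The call of ATP5MK was lost without any 1 of H1975 control 1, H1975 control 3, PC9 control 1 and PC9 control 3 (0.45 to 0.52), that of COX7A2 without H1975 control library 3 (0.46) or PC9 control library 3 (0.51) and that of COX7C without H1975 control library 3 (0.48). The isoforms COX6B1 and COX6B2 were not called (0.29 ± 0.17 and 0.08 ± 0.24).

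**Figure D1:**
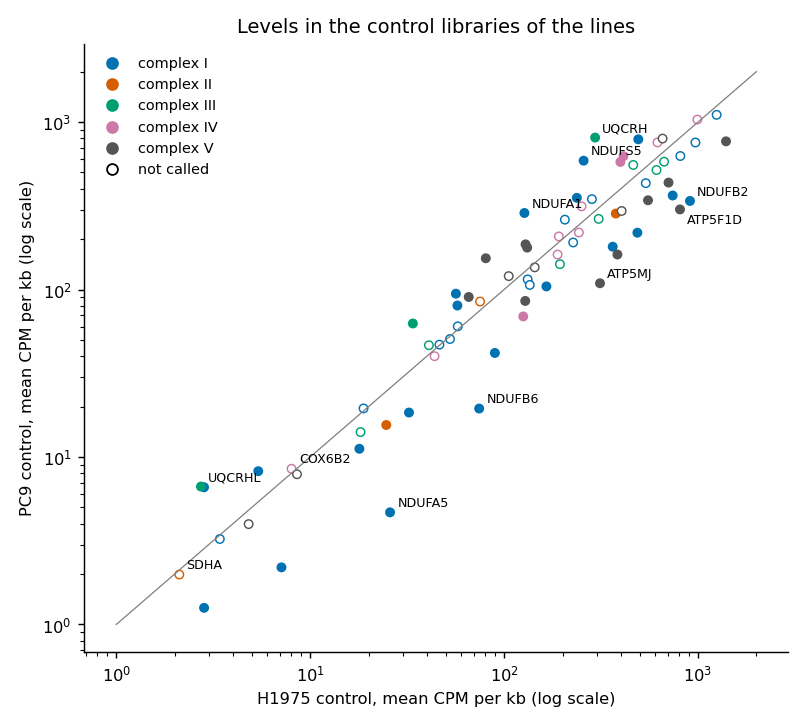
Mean level per kilobase of each of the 76 tested genes in 3 PC9 control libraries (vertical, log scale) against 3 H1975 control libraries (horizontal, log scale), coloured by complex and filled where the difference was called. The line marks equal levels; NDUFA5 and NDUFB6 lie farthest below it and UQCRH and UQCRHL above it.

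The response to each drug was compared with the control of its line. In PC9, almonertinib moved the genes in both directions: 24 of 76 rose and 14 fell, with a median of 0.08, where 28.9% of all 12796 genes tested rose and 27.8% fell, with a median of 0.03. Under paclitaxel 6 rose and 37 fell, with a median of −0.25, where 27% of all genes rose and 28% fell (median −0.01). The combination had 3 higher and 34 lower and a median of −0.24, where 24.7% of all genes rose and 26% fell (median 0.00). In this fit the shares that fell under paclitaxel and the combination, 48.7% and 44.7%, lay above those of all genes, and the shares that rose lay below. In a fit of all 24 libraries, whose spread includes H1975, 4 rose and 9 fell under paclitaxel (all genes 21.5% and 16.3%), so that the share that fell, 11.8%, lay below that of all genes. In that fit 8 rose and 9 fell under almonertinib (all genes 21.8% and 21.8%), and 0 rose and 18 fell under the combination (all genes 17.5% and 18.6%).

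With the length and GC trend removed, 11 genes were higher and 30 lower under paclitaxel (all genes 22.4% and 29.97%), with a median of −0.13. Under the combination 7 were higher and 27 lower (all genes 27% and 31.3%), with a median of −0.13. Under almonertinib trend removal gave 29 higher and 13 lower (all genes 29.8% and 30.9%). Without almonertinib library 3, which stands apart, 21 rose and 23 fell under almonertinib (all genes 32.4% and 30.4%), and without almonertinib library 1, 30 rose and 9 fell (all genes 26.3% and 25.4%). Under paclitaxel 18 genes fell without paclitaxel library 2, a share of 23.7% beside 21.2% of all genes. The count that fell was 21 without either paclitaxel library 1 or control library 3, a share of 27.6% beside 21.4% and 22.7% of all genes, and 23 without paclitaxel library 3 (30.3% beside 23.6%). Under the combination 21 fell without combination library 2 (27.6% beside 21.1%).

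**Figure D2:**
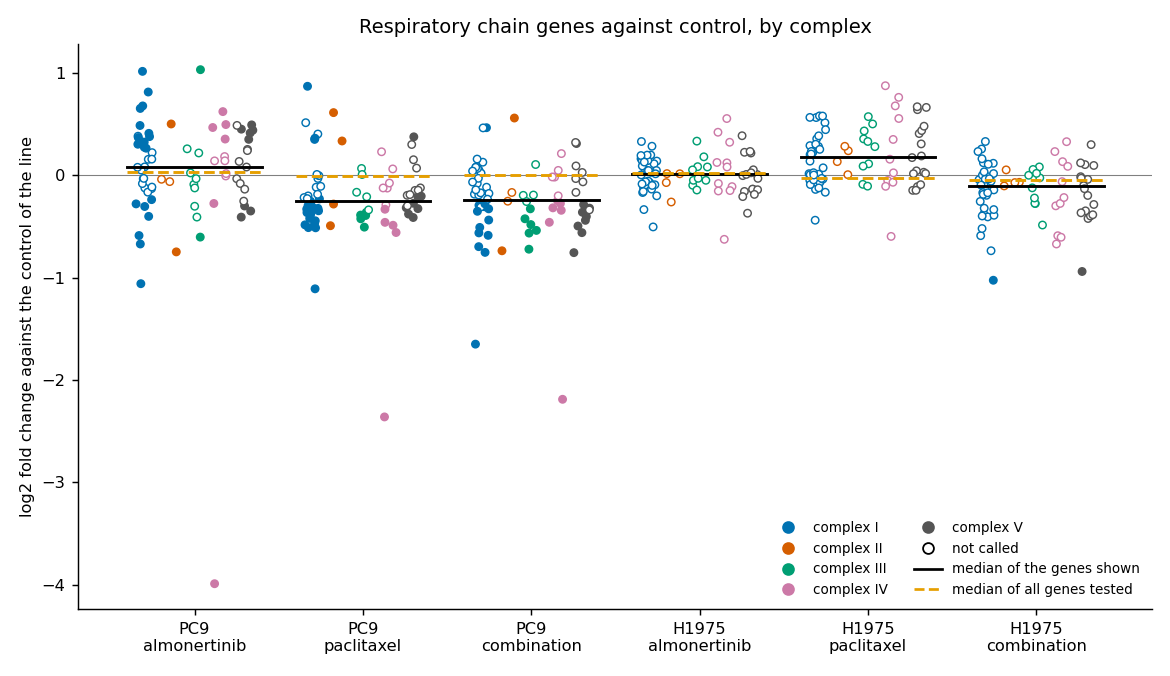
Log2 fold change of each of the 76 tested genes against the control of its line (vertical) for 3 treatments in PC9 and in H1975, coloured by complex and filled where called. The black line is the median of these genes and the dashed line that of all genes tested; in PC9 the black line lies below the dashed one under paclitaxel and the combination, and in H1975 2 points are filled.

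In complex I, 13 of 34 tested genes rose and 7 fell under almonertinib in PC9. Under paclitaxel 3 rose and 18 fell, and under the combination 1 rose and 12 fell. The counts of each complex here and below stand beside those of all genes. Of these 28.9% rose and 27.8% fell under almonertinib, 27% and 28% under paclitaxel, and 24.7% and 26% under the combination. NDUFB9, an accessory subunit of the membrane arm, had 159.8, 182 and 233 CPM in PC9 almonertinib libraries, 233, 219 and 222 CPM in paclitaxel libraries and 199, 167 and 204 CPM in combination libraries, against 316, 285 and 320.04 CPM in controls. Every treated library was below every control, and NDUFB9 fell by 0.67 ± 0.12, 0.47 ± 0.12 and 0.70 ± 0.12 (adjusted p = 0.000156, 0.00331 and 0.000143). Trend removal gave −0.46, −0.22 and −0.52, all called.

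NDUFB6 had 8.04, 11.4 and 9.92 CPM under almonertinib, 11.8, 10.6 and 9.14 CPM under paclitaxel and 9.2, 8.25 and 8.96 CPM under the combination, against 14.4, 13.3 and 16.7 CPM in PC9 controls. It fell by 0.59 ± 0.15, 0.51 ± 0.15 and 0.75 ± 0.15, again without overlap between treated and control libraries. The first 2 values were, with the trend removed, −0.94 and −0.88, and the paclitaxel call was lost without paclitaxel library 3 (−0.40). NDUFA13, an accessory subunit also known as GRIM19, fell by 1.06 ± 0.29, 1.11 ± 0.29 and 1.65 ± 0.31, but from few reads (it is named after its values were seen), with 0.717, 1.13 and 1.95 CPM under almonertinib against 2.46, 2.3 and 3.26 CPM in controls.

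NDUFA5 went the other way in PC9. It had 13.6, 16.7 and 12.1 CPM under almonertinib, 13, 13.4 and 12.6 CPM under paclitaxel and 9.2, 9.998 and 9.95 CPM under the combination, against 6.64, 7.79 and 6.66 CPM in controls. All treated libraries were above all controls, and NDUFA5 rose by 1.01 ± 0.14, 0.87 ± 0.14 and 0.46 ± 0.14. Its transcript has a GC content of 33.2%, and with the trend removed the values were 0.31, 0.02 and 0.15, of which the first was called. NDUFA2, an accessory subunit of the NADH module, had 154, 186 and 232 CPM under almonertinib and 118, 110.4 and 130.4 CPM in controls and rose by 0.68 ± 0.12, while its values of −0.20 ± 0.12 under paclitaxel and 0.05 ± 0.12 under the combination were not called.

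NDUFS1 and NDUFV1 are core subunits of the module that oxidises NADH. NDUFS1 differed by 0.16 ± 0.12 under almonertinib and by −0.07 ± 0.12 under the combination, and it rose by 0.36 ± 0.12 under paclitaxel, where the value with the trend removed was 0.03 and not called, and where the call was also lost without control library 3 (0.30) or paclitaxel library 2 (0.30). NDUFV1 rose by 0.26 ± 0.11 under almonertinib and differed by −0.11 ± 0.11 and 0.04 ± 0.11 under the other treatments, and its almonertinib call was lost without any 1 of almonertinib 3, control 1, control 2 and control 3 (0.14 to 0.30). NDUFB2, a membrane arm subunit, had the largest fall under paclitaxel of complex I genes with at least 5 CPM (−0.51 ± 0.11), although it rose by 0.33 ± 0.11 under almonertinib (0.19 without almonertinib library 3), a call lost without control library 2 (0.30). Its value under paclitaxel was −0.26 with the trend removed. The third complex I gene that rose under paclitaxel was NDUFS4, an accessory subunit of the NADH module (0.35 ± 0.12), named after its values were seen. Its call was lost with the trend removed (0.07) and without control library 1 (0.30) or control library 3 (0.34).

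**Figure D3:**
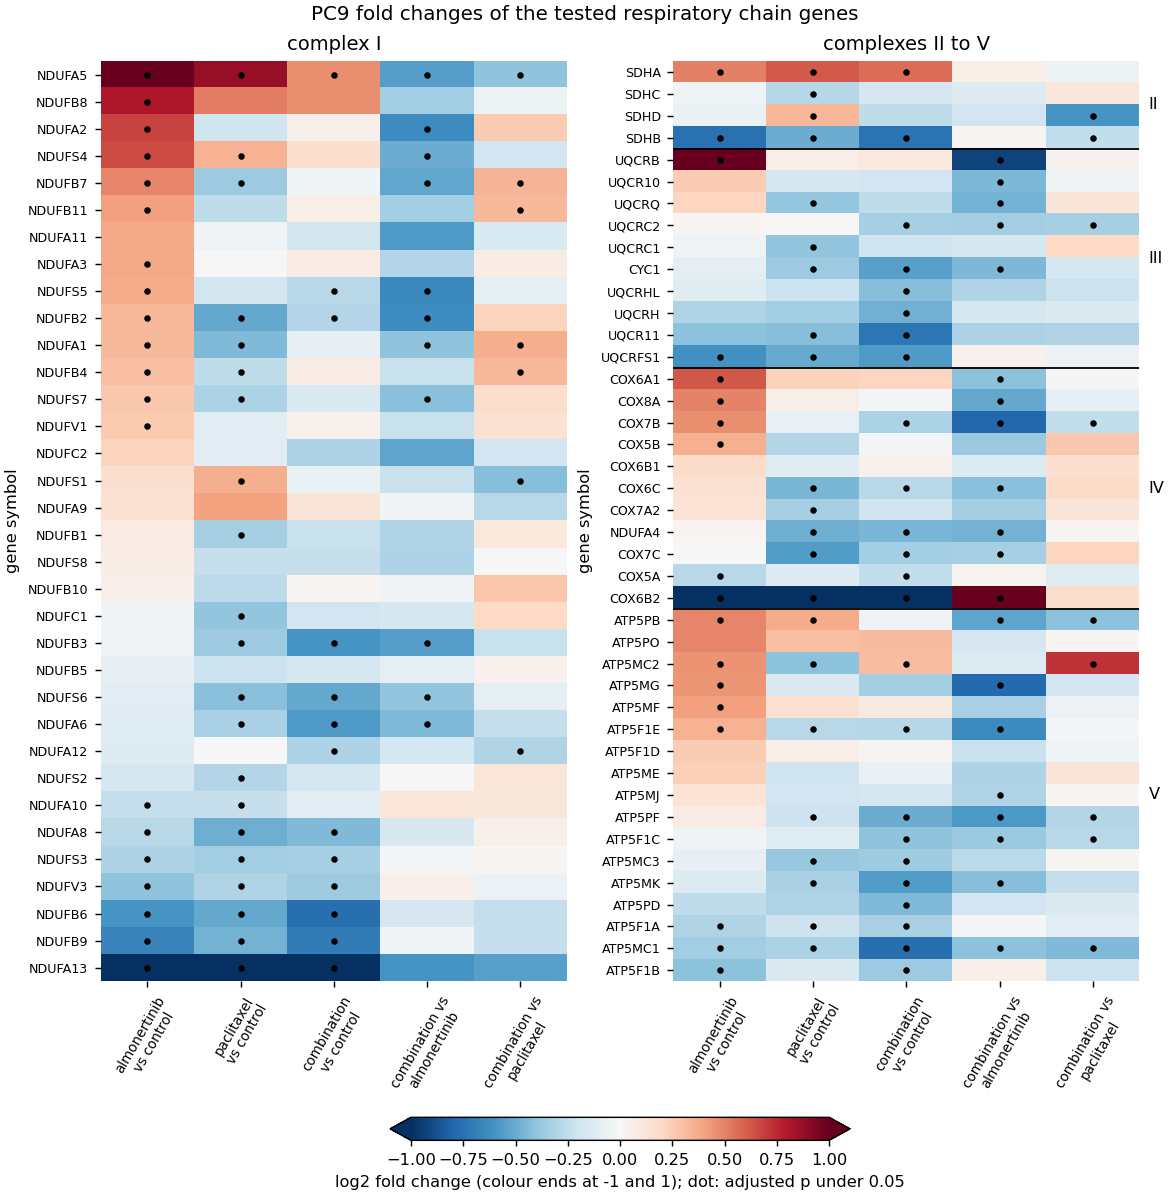
Log2 fold change of the 76 tested genes in PC9 (rows, ordered within each complex by the almonertinib value) for 5 comparisons (columns), with the colour scale ending at −1 and 1 and a dot where the adjusted p was under 0.05. Complex I fills the left panel and complexes II, III, IV and V the right one; SDHB, UQCRFS1 and COX6B2 are blue in all 3 comparisons with control, SDHA and NDUFA5 are red in them.

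In complex II the counts of the 2 genes for the catalytic head moved apart in PC9. Those of SDHA are low, and they are uncertain because of its near-identical pseudogene copies. SDHB, the iron-sulfur subunit (ENSG00000117118, chromosome 1), had 53.8, 60.8 and 59.1 CPM under almonertinib, 71.5, 70.1 and 69.8 CPM under paclitaxel and 64.5, 51.4 and 60.7 CPM under the combination, against 97.8, 96.1 and 99.3 CPM in controls. All 9 treated libraries were below all 3 controls, which lay close together. SDHB fell by 0.75 ± 0.09 under almonertinib, by 0.49 ± 0.09 under paclitaxel and by 0.74 ± 0.09 under the combination (adjusted p = 2.56e-06, 0.000239 and 4.21e-06). Its trend-removed values were −0.51, −0.40 and −0.56, all called, and every fit without 1 library called them too.

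SDHA had 5.32, 5.92 and 5.98 CPM under almonertinib, 6.09, 6.94 and 5.93 CPM under paclitaxel and 6.35, 5.23 and 6.53 CPM under the combination, against 3.56, 3.45 and 5.31 CPM in controls. Combination library 2 lay below the third control library, while every library of the single drugs lay above the 3 controls, and SDHA rose by 0.50 ± 0.18, 0.61 ± 0.18 and 0.56 ± 0.18 (adjusted p = 0.0247, 0.00821 and 0.0154). The almonertinib call was lost without almonertinib library 2 (0.48), control library 1 (0.41) or control library 2 (0.40), and the combination call without combination library 3 (0.50), control library 1 (0.46) or control library 2 (0.46). SDHC fell by 0.28 ± 0.10 and SDHD rose by 0.33 ± 0.12 under paclitaxel, and neither was called under almonertinib (−0.04 ± 0.10 and −0.06 ± 0.12) or the combination (−0.17 ± 0.10 and −0.25 ± 0.12). The paclitaxel call of SDHC was lost with the trend removed (−0.08) and without any 1 of control 1, control 2, control 3, paclitaxel 2 and paclitaxel 3 (−0.22 to −0.29), and that of SDHD without any 1 of control 2, control 3, paclitaxel 1 and paclitaxel 2 (0.32 to 0.35).

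In complex III, 1 of 10 genes rose and 1 fell under almonertinib in PC9, while 5 fell under paclitaxel and 6 under the combination with 0 higher. UQCRFS1, the Rieske iron-sulfur protein, had 89.7, 104 and 123 CPM under almonertinib, 114, 116 and 116 CPM under paclitaxel and 112, 102 and 115 CPM under the combination, against 160.3, 161 and 163 CPM in controls. No treated library reached a control, and UQCRFS1 fell by 0.60 ± 0.10, 0.51 ± 0.10 and 0.57 ± 0.10 (adjusted p = 7.4e-05, 0.000496 and 0.000181). Its paclitaxel value was −0.80 with the trend removed. UQCRB, which lies near the ubiquinone site, had 159.8, 183 and 172 CPM under almonertinib, 86.9, 90.6 and 91.1 CPM under paclitaxel and 87.7, 85.9 and 99.4 CPM under the combination, against 82.6, 85.7 and 84.7 CPM in controls. Almonertinib libraries stood above all others of the line, and UQCRB rose by 1.03 ± 0.08 (0.58 with the trend removed), whereas its values of 0.07 ± 0.08 and 0.10 ± 0.08 under the other treatments were not called.

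CYC1, cytochrome c1, fell by 0.36 ± 0.12 under paclitaxel and 0.54 ± 0.12 under the combination and was not called under almonertinib (−0.09 ± 0.12). Its paclitaxel call was lost with the trend removed (−0.08) and without paclitaxel library 1 (−0.30) or paclitaxel library 2 (−0.33). UQCRC1, a core protein, fell by 0.39 ± 0.11 under paclitaxel and differed by −0.03 ± 0.11 and −0.20 ± 0.11 under almonertinib and the combination. Its paclitaxel value was −0.20 with the trend removed, and the call was lost without paclitaxel library 1 (−0.32). UQCR11 fell by 0.43 ± 0.17 and 0.72 ± 0.17 under paclitaxel and the combination, while UQCRH and UQCRHL fell by 0.48 ± 0.14 and 0.43 ± 0.14 under the combination. After trend removal UQCR11 under paclitaxel was at −0.12 and UQCRH and UQCRHL under the combination at −0.29 and −0.34, none of them called. The paclitaxel call of UQCR11 was also lost in each of the 6 fits without 1 library (−0.35 to −0.48), and the combination call of UQCRHL without combination library 2 (−0.39) or control library 1 (−0.39).

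Complex IV held the largest change of all 76 genes. COX6B2, the testis isoform of the subunit that bridges cytochrome oxidase dimers (ENSG00000160471, chromosome 19), had 0.87, 0.696 and 1.07 CPM under almonertinib, 2.22, 3.18 and 2.91 CPM under paclitaxel and 3.68, 2.57 and 3.02 CPM under the combination, against 7.58, 17.9 and 16.9 CPM in PC9 controls. All treated libraries were below all controls although control library 1 was well below both other controls. COX6B2 fell by 3.99 ± 0.32 under almonertinib, by 2.36 ± 0.27 under paclitaxel and by 2.19 ± 0.27 under the combination (adjusted p = 3.33e-08, 5.71e-06 and 6.1e-06). The values with the trend removed were −3.90, −2.12 and −2.14, and the 3 calls held in all 6 fits without 1 library. In GENCODE v29, 30.9% of its exon bases overlap AC020922.1 on the same strand, so reads there cannot be assigned to 1 gene.

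COX6B1, the ubiquitous isoform, had 352, 380.2 and 481 CPM under almonertinib, 317, 334 and 349 CPM under paclitaxel and 379, 334 and 402 CPM under the combination, against 357, 345 and 373 CPM in PC9 controls. Its groups overlapped and its values of 0.18 ± 0.11, −0.12 ± 0.11 and 0.05 ± 0.11 were not called. Of the other isoform pairs, COX8C was at 0 in all 12 PC9 libraries and had 0 to 8 raw counts in an H1975 library. COX8A, its ubiquitous counterpart, rose by 0.49 ± 0.13 under almonertinib and differed by 0.06 ± 0.13 and −0.02 ± 0.13 under the other treatments. In GENCODE v29, 34.5% of the exon bases of COX8A overlap AP000721.1 on the same strand, so reads there cannot be assigned to 1 gene. COX7A2, the ubiquitous form beside COX7A1, which had 1 raw count in all, fell by 0.33 ± 0.13 under paclitaxel and was not called under almonertinib or the combination (0.14 ± 0.13 and −0.20 ± 0.13). The paclitaxel call of COX7A2 was lost in each of the 6 fits without 1 library (−0.25 to −0.37).

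In all, 4 of 11 tested complex IV genes rose and 2 fell under almonertinib in PC9, 0 rose and 5 fell under paclitaxel, and 0 rose and 6 fell under the combination. With the trend removed 2 were higher and 6 lower under paclitaxel, and 2 were higher and 4 lower under the combination. COX6A1, the ubiquitous form beside COX6A2, which had 1 raw count in all, had 32.8, 32.5 and 39.7 CPM under almonertinib, 26.8, 28.8 and 25.8 CPM under paclitaxel and 25.8, 22.4 and 31.6 CPM under the combination, against 22, 22.1 and 24.6 CPM in controls. It rose by 0.62 ± 0.12 under almonertinib, where the groups did not overlap, and differed by 0.23 ± 0.12 and 0.21 ± 0.12 under the other treatments. In GENCODE v29, 13% of the exon bases of COX6A1 overlap AL021546.1 on the same strand. COX7C and NDUFA4, small subunits of cytochrome oxidase, fell by 0.56 ± 0.11 and 0.49 ± 0.11 under paclitaxel and 0.34 ± 0.11 and 0.46 ± 0.11 under the combination, with values of −0.01 ± 0.11 and 0.02 ± 0.11 under almonertinib that were not called. The paclitaxel values with the trend removed were −0.94 and −1.07, and the combination call of COX7C was lost without combination library 2 (−0.25) or control library 3 (−0.29).

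COX5A, which lies on the matrix side, fell by 0.28 ± 0.10 under almonertinib and 0.25 ± 0.10 under the combination, and both calls were lost with the trend removed (−0.04 and −0.04). The almonertinib call was also lost without any 1 of almonertinib 1, almonertinib 2, control 1 and control 3 (−0.19 to −0.27), and the combination call without any 1 of combination 1, combination 2, combination 3, control 1 and control 3 (−0.19 to −0.28). COX5B rose by 0.35 ± 0.13 under almonertinib and was not called under paclitaxel or the combination (−0.29 ± 0.13 and −0.02 ± 0.13). Its almonertinib value was 0.60 with the trend removed, and the call was lost without almonertinib library 3 (0.17), control library 1 (0.31) or control library 2 (0.34).

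**Figure D4:**
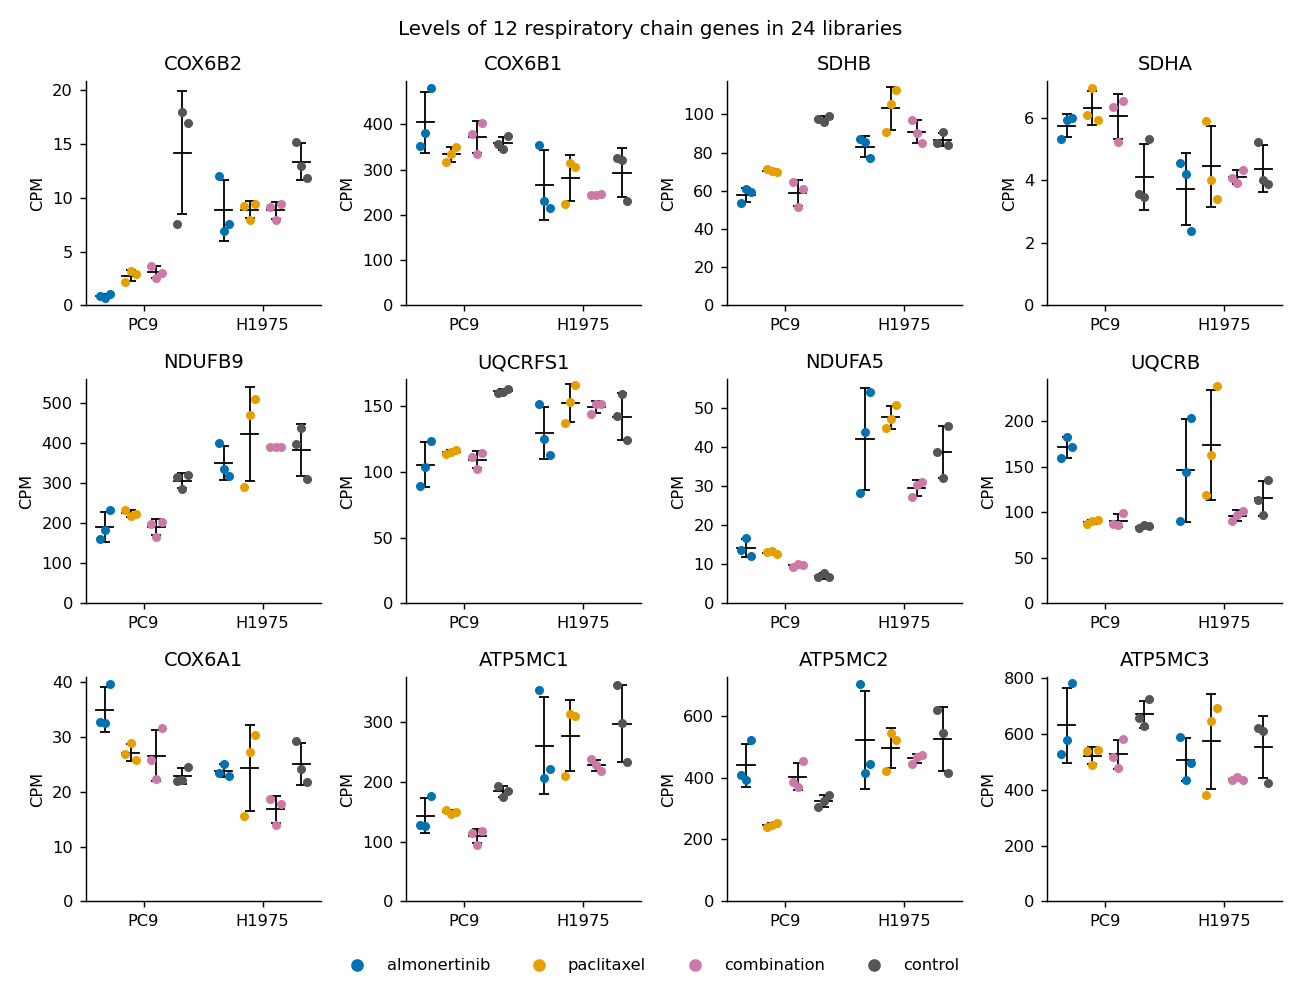
CPM of 12 genes in the 24 libraries, with 1 point per library and the mean and SD of each group of 3 (black), in the order almonertinib, paclitaxel, combination and control within PC9 and within H1975. COX6B2, SDHB, NDUFB9 and UQCRFS1 are lower in treated than in control PC9 libraries, NDUFA5 is higher, and UQCRB is higher in PC9 almonertinib libraries than in any other PC9 library.

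In complex V, 5 of 17 genes rose and 3 fell under almonertinib in PC9, 1 rose and 7 fell under paclitaxel, and 1 rose and 9 fell under the combination. With the trend removed 6 were higher and 1 lower under almonertinib, and 3 were higher and 7 lower under each other treatment. ATP5F1A and ATP5F1B, the alpha and beta subunits of the catalytic head, fell by 0.30 ± 0.08 and 0.41 ± 0.11 under almonertinib and 0.32 ± 0.08 and 0.36 ± 0.11 under the combination. Under paclitaxel ATP5F1A fell by 0.21 ± 0.08 and ATP5F1B was not called (−0.15 ± 0.11). After trend removal the almonertinib values of −0.12 and −0.11 were not called, and the combination values of −0.21 and −0.22 were. The paclitaxel call of ATP5F1A was lost in each of the 6 fits without 1 library (−0.14 to −0.24), and the combination call of ATP5F1B without combination library 2 (−0.29).

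The membrane ring of ATP synthase is built from 1 mature protein, subunit c, that 3 nuclear genes encode with different import sequences. These genes did not move together in PC9. ATP5MC1 had 128, 126 and 177 CPM under almonertinib, 154, 146 and 149.7 CPM under paclitaxel and 115, 95.1 and 118 CPM under the combination, against 194, 174 and 184 CPM in controls, and fell by 0.35 ± 0.12, 0.32 ± 0.12 and 0.76 ± 0.12. The combination libraries lay below all others of the line, and the almonertinib group overlapped the controls. The combination fall was called with the trend removed (−0.58), while those of the single drugs were not (−0.16 and −0.09). The almonertinib call was also lost without almonertinib library 1 (−0.27), almonertinib library 2 (−0.26) or control library 1 (−0.31), and the paclitaxel call without any 1 of control 1, control 3, paclitaxel 1, paclitaxel 2 and paclitaxel 3 (−0.27 to −0.32).

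ATP5MC2 had 409, 392 and 520.1 CPM under almonertinib, 242, 247 and 252 CPM under paclitaxel and 385, 371 and 454 CPM under the combination, against 305, 324 and 343 CPM in controls. It rose by 0.45 ± 0.11 under almonertinib and 0.31 ± 0.11 under the combination and fell by 0.41 ± 0.11 under paclitaxel, and no treated group overlapped the controls. The paclitaxel call was lost with the trend removed (−0.13), and the combination call without combination library 3 (0.22), control library 1 (0.27) or control library 2 (0.31). ATP5MC3, the most abundant of the set in PC9 controls per kilobase, differed by −0.08 ± 0.13 under almonertinib and fell by 0.38 ± 0.13 and 0.35 ± 0.13 under paclitaxel and the combination, both lost with the trend removed (−0.16 and −0.16). The paclitaxel call was also lost without control library 3 (−0.33) or paclitaxel library 2 (−0.31), and the combination call without any 1 of combination 1, combination 2, control 1 and control 3 (−0.28 to −0.36). ATP5PB, the b subunit of the peripheral stalk, rose by 0.49 ± 0.09 and 0.37 ± 0.09 under the single drugs and was not called under the combination (−0.03 ± 0.09). ATP5MK, a small membrane subunit, fell by 0.56 ± 0.11 under the combination.

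The combination was then set against each single drug in PC9. Because the labels do not state the doses within the combination, an added drug and a changed dose cannot be told apart in either line. Against almonertinib, 1 gene was higher and 30 were lower, with a median of −0.31, where 10.3% of all genes were higher and 9.74% lower (median −0.04). The count lower was 17 without combination library 2 and 18 without combination library 1, and 28 with the trend removed. The shares of all genes in these fits are not given here, so the shift in count may not be particular to the members. COX6B2 was the gene that was higher (1.80 ± 0.35). UQCRB fell by 0.93 ± 0.08 and UQCRQ by 0.47 ± 0.12 in complex III, COX7B by 0.78 ± 0.09 and COX8A by 0.51 ± 0.13 in complex IV, and ATP5MG and ATP5F1E by 0.78 ± 0.15 and 0.64 ± 0.09 in complex V. In complex I, NDUFS5 and NDUFA2 fell by 0.65 ± 0.10 and 0.63 ± 0.12. Against control, almonertinib alone gave 1.03 ± 0.08 for UQCRB, 0.68 ± 0.12 for NDUFA2 and 0.47 ± 0.09 for COX7B, and the comparisons share the almonertinib libraries. The falls of UQCRB and ATP5F1E were −0.56 and −0.35 with the trend removed, of which the second was not called, and that of UQCRQ was −0.29 without almonertinib library 3. The call of UQCRQ was lost without combination library 2 (−0.41) and that of COX8A without combination library 2 (−0.36).

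Against paclitaxel, 5 genes were higher and 11 lower in combination libraries, where 21.7% of all genes were higher and 22.4% lower. With the trend removed 12 were higher and 11 lower (all genes 23.9% and 21.7%). Leaving out any 1 of the 6 paclitaxel and combination libraries gave 8 to 11 called genes in all, higher and lower together. The shares of all genes in those fits are not given here, so these totals do not show a change particular to the members. ATP5MC2 rose by 0.72 ± 0.11, and NDUFA1 and NDUFB7 by 0.36 ± 0.12 and 0.34 ± 0.12. The others that rose were NDUFB4 and NDUFB11, membrane arm subunits, named after their values were seen (0.33 ± 0.10 and 0.32 ± 0.12). The call of NDUFB4 was lost without combination library 3 (0.24), paclitaxel library 1 (0.32) or paclitaxel library 2 (0.29), and that of NDUFB11 in each of the 6 fits without 1 library (0.24 to 0.36). SDHD fell by 0.59 ± 0.12, SDHB by 0.24 ± 0.09, ATP5MC1 by 0.44 ± 0.12, ATP5PB by 0.41 ± 0.09, NDUFS1 by 0.43 ± 0.11, NDUFA5 by 0.40 ± 0.13, UQCRC2 by 0.34 ± 0.08 and COX7B by 0.24 ± 0.09. After trend removal NDUFA5 and COX7B were at 0.13 and 0.01, NDUFS1, NDUFB7, SDHB and UQCRC2 at −0.14, 0.06, −0.16 and −0.12, none of them called, and ATP5PB at −0.20. The call of NDUFA1 was lost without combination library 3 (0.30), paclitaxel library 1 (0.34) or paclitaxel library 3 (0.30), that of NDUFA5 without any 1 of combination 1, combination 3, paclitaxel 1 and paclitaxel 2 (−0.36 to −0.42), that of NDUFB7 without any 1 of combination 1, combination 2, combination 3, paclitaxel 1 and paclitaxel 2 (0.26 to 0.37), that of SDHB without any 1 of combination 2, combination 3, paclitaxel 1, paclitaxel 2 and paclitaxel 3 (−0.17 to −0.27) and that of COX7B without any 1 of combination 1, combination 2, paclitaxel 1 and paclitaxel 2 (−0.15 to −0.28).

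The interaction of the drugs is the log2 effect of the combination less the sum of the almonertinib and paclitaxel effects, and it is 0 where these add up. It measures how the drugs combine only if the combination held the single doses, which the labels do not state. In PC9, 5 genes had a positive and 15 a negative interaction, where 22.1% and 23.4% of all genes did. COX6B2 had the largest (4.16 ± 0.44). Its counts under almonertinib alone were already near the floor, which limits how far the falls of the single drugs could add up. SDHB (0.50 ± 0.12), UQCRFS1 (0.55 ± 0.14), NDUFB9 (0.44 ± 0.17) and NDUFA10 (0.35 ± 0.12) were also positive. NDUFA5 (−1.42 ± 0.19), UQCRB (−0.99 ± 0.12), ATP5PB (−0.90 ± 0.13), NDUFS4 (−0.84 ± 0.16), COX7B (−0.71 ± 0.13), COX6A1 (−0.64 ± 0.17), ATP5MG (−0.63 ± 0.22), SDHD (−0.53 ± 0.17) and UQCRC2 (−0.36 ± 0.12) were negative. After trend removal NDUFA5, UQCRB, NDUFS4, ATP5MG, UQCRC2, NDUFB9 and NDUFA10 were not called (−0.18, −0.16, −0.29, −0.38, −0.14, 0.16 and 0.10), and COX7B was at −0.35. Without almonertinib library 3 the counts were 14 positive and 18 negative. The share of all genes in that fit is not given here, so these counts do not show a change particular to the members. The call of SDHD was lost without almonertinib library 2 (−0.45), that of NDUFB9 in 9 of the 12 fits without 1 library (0.33 to 0.47), that of NDUFA10 in 4 of the 12 fits without 1 library (0.28 to 0.33), that of ATP5MG in 4 of the 12 fits without 1 library (−0.54 to −0.61) and that of UQCRC2 in 5 of the 12 fits without 1 library (−0.31 to −0.35).

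In H1975, no respiratory chain gene was called under almonertinib or paclitaxel with edgeR. Unadjusted p-values were under 0.05 for 2 and 18 of the 76, and DESeq2 called 0 and 1, ATP5PD of the peripheral stalk under paclitaxel (0.66). The shares of all genes in this paragraph are at the adjusted threshold, and those at the unadjusted one are not given. The counts of 2 and 18 therefore do not show a change particular to the members. Of all 12345 genes tested, 1.35% were higher and 0.599% lower under almonertinib, and 0.446% and 0.194% under paclitaxel. The medians were 0.01 under almonertinib and 0.18 under paclitaxel, beside 0.02 and −0.03 for all genes. Under the combination 2 genes fell, where 0.697% of all genes did and 1.77% rose, with a median of −0.10. They were NDUFB8, a membrane arm subunit of complex I, and ATP5MG, the g subunit of ATP synthase.

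NDUFB8 had 48, 38 and 47 raw counts in H1975 combination libraries against 95, 89 and 111 in controls and fell by 1.03 ± 0.23 (adjusted p = 0.0295). ATP5MG had 65, 42 and 74 raw counts in combination libraries against 172, 89 and 119 in controls and fell by 0.94 ± 0.23 (adjusted p = 0.0431). Neither gene's groups overlapped, but both counts are small. With the repeat number as a block, neither was called (−1.03 and −0.94). NDUFB8 was called in 0 of the 6 fits without 1 library (−1.11 to −0.96), and ATP5MG in 1 of them, that without control library 3 (−0.73 to −1.07 over the 6).

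Without almonertinib 1, paclitaxel 1 and control 3, 12 genes rose and 23 fell under almonertinib (all genes 23.9% and 21.6%). Under paclitaxel 25 rose and 1 fell (all genes 3.58% and 5.25%), and the gene that fell was COX6B2. Under the combination 1 rose and 30 fell (all genes 15.8% and 19.2%). The medians without them were −0.13, 0.24 and −0.16 in the same order, of the same sign as before under paclitaxel and the combination. With 2 libraries left in 3 of the groups, and libraries chosen after the data were seen, these counts are a description. The trends with GC content and transcript length were not removed in the fit without these libraries. Spearman's rho with GC content was −0.58 and −0.43 in almonertinib libraries 2 and 3, against 0.29 and 0.37 in control libraries 1 and 2. Treatment and this trend therefore cannot be told apart in the almonertinib counts. In paclitaxel libraries 2 and 3 rho with GC content was 0.05 and 0.15. Spearman's rho with length was −0.39 and −0.40 in paclitaxel libraries 2 and 3. It was −0.17 and −0.16 in control libraries 1 and 2 and 0.17 to 0.25 in combination libraries.

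The combination against paclitaxel in H1975 had 0 genes called with edgeR (0% of all genes higher and 0% lower), 22 at an unadjusted p under 0.05 and 0 with DESeq2. Of the 76 values 72 were below 0, with a median of −0.35 beside −0.04 for all genes. Above 0 were 4 of the 76 members and 5567 of all 12345 genes tested. Without paclitaxel library 1 alone 14 were lower. Without all 3 libraries 57 were lower and 0 higher (all genes 16.3% lower and 16.7% higher). Spearman's rho of a library's counts with transcript length was −0.39 and −0.40 in paclitaxel libraries 2 and 3 and 0.24 in paclitaxel library 1. It was 0.17 to 0.25 in combination libraries. The members' transcripts are short, and no fit left these libraries out and removed the length trend. With all libraries and the trend removed the median was −0.21. Against almonertinib 0 were called with edgeR (0% of all genes higher and 0% lower), 6 at an unadjusted p under 0.05 and 0 with DESeq2, with 3 lower without almonertinib library 1. The H1975 interaction had 0 calls among the members with edgeR, 13 at an unadjusted p under 0.05 and 0 with DESeq2, where 0.259% and 0.413% of all genes were called at the adjusted threshold, and a median of −0.35. No share of all genes is given for the counts at an unadjusted p, or for those of 14 and 3 without 1 library. These counts therefore do not show a change particular to the members.

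The members followed in PC9 had these values in H1975. COX6B2 had 12, 6.87 and 7.52 CPM in almonertinib libraries, 9.23, 7.97 and 9.43 CPM in paclitaxel libraries and 9.13, 7.94 and 9.45 CPM in combination libraries, against 15.2, 13 and 11.8 CPM in controls. Paclitaxel and combination libraries were below all controls, 1 almonertinib library was not, and the values of −0.63 ± 0.21, −0.60 ± 0.21 and −0.61 ± 0.21 were not called (adjusted p = 0.187, 0.345 and 0.135). A fit without the libraries that stand apart kept almonertinib and control libraries with GC trends of opposite sign, which were not removed. Without the libraries that stand apart the values of COX6B2 were −0.95, −0.71 and −0.68, all called. SDHB differed by −0.07 ± 0.14, 0.24 ± 0.14 and 0.05 ± 0.14 and was not called with or without them, its H1975 libraries lying at 87, 85.5 and 76.9 CPM under almonertinib, 91, 105 and 113 CPM under paclitaxel and 97.3, 90.1 and 85.2 CPM under the combination, against 85.2, 90.6 and 84.2 CPM in controls.

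The difference of the effects, PC9 minus H1975, was tested in a fit of all 24 libraries. For almonertinib 3 genes had a higher effect in PC9 (NDUFA5, ATP5MF and NDUFB8) and 2 a lower one, COX6B2 and SDHB, where 5.53% of all genes were higher and 11% lower. For paclitaxel 1 was higher, NDUFB8, and 17 lower (9.9% and 7.21% of all genes), with a median of −0.41 beside 0.02 for all genes. For the combination 3 were higher, NDUFA5, COX6A1 and NDUFB8, and 10 lower (6.99% and 11% of all genes). NDUFB8, which has few reads, is named here after its values were seen (1.30 ± 0.33, 0.96 ± 0.33 and 1.48 ± 0.34), and its paclitaxel call was lost in 9 of the 12 fits without 1 library (0.74 to 1.04). With the trend removed the counts higher and lower were 11 and 6 for almonertinib (all genes 14.4% and 14.1%), 5 and 22 for paclitaxel (all genes 11.6% and 13.9%), and 9 and 11 for the combination (all genes 13.8% and 16.3%). The almonertinib and combination counts are thus near or below the shares of all genes. Without H1975 almonertinib library 1 the almonertinib count higher was 8 (all genes 9.71%). The paclitaxel count lower was 34 without H1975 paclitaxel library 1 (all genes 9.64%), 9 and 6 without its libraries 2 and 3, 7 without control library 3 of either line, and 10 and 9 without PC9 paclitaxel libraries 2 and 3, where 3.91% to 4.85% of all genes were lower. The combination count lower was 6 or less without any 1 of H1975 control libraries 1 and 3, PC9 control libraries 1 and 3 and the 6 combination libraries, and 3 at the fewest, without PC9 combination library 2 (all genes 7.3%).

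COX6B2 and SDHB were lower in PC9 in all 3 of these tests, with differences of −3.39 ± 0.39, −1.76 ± 0.36 and −1.60 ± 0.36 for COX6B2 and −0.69 ± 0.16, −0.72 ± 0.16 and −0.80 ± 0.16 for SDHB. Each remained called with the trend removed, at −3.24, −1.55 and −1.58 and at −0.42, −0.57 and −0.52. NDUFA4 had the largest paclitaxel difference after COX6B2 (−1.24 ± 0.28), with 270.4, 455 and 646 CPM in H1975 paclitaxel libraries, of which the first is the library that stands apart, against 265, 295 and 242 CPM in H1975 controls.

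**Figure D5:**
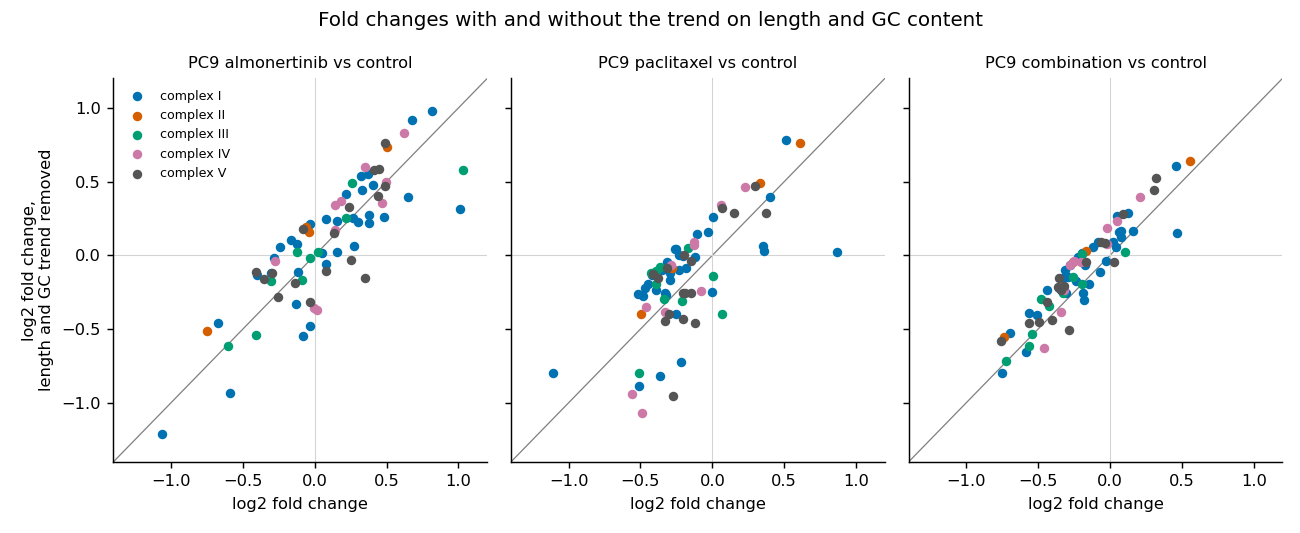
Log2 fold change of each gene against PC9 control with each library's trend with GC content and transcript length removed (vertical) against the value without removal (horizontal), for 3 treatments, coloured by complex; the line marks equal values. COX6B2 in each panel and NDUFA13 under the combination lie outside the axes, and under paclitaxel several genes near −0.5 on the horizontal axis reach below −0.8 on the vertical one while NDUFA5 drops to 0.02.

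Other genes of the pathway were taken from fixed lists, whose counts in PC9 stand beside 28.9% of all genes that rose and 27.8% that fell under almonertinib, 27% and 28% under paclitaxel, and 24.7% and 26% under the combination. No difference between a list and all genes was tested. A list of genes outside the symbol patterns held subunit genes and others that are not subunits of a complex, such as CYCS, cytochrome c, and ATP5IF1. Of its 6 tested genes, 2 fell under almonertinib in PC9 (CYCS by 0.94 ± 0.11 and NDUFAB1, the acyl carrier protein of complex I, by 0.45 ± 0.12). Under paclitaxel 2 fell, COX7A2L by 0.52 ± 0.12 and ATP5IF1 by 0.26 ± 0.10. Under the combination 3 fell, among them CYCS by 1.36 ± 0.11 and NDUFAB1 by 0.59 ± 0.12, and 1 rose, NDUFA4L2, a hypoxia-inducible paralogue of NDUFA4 (0.93 ± 0.23). After trend removal NDUFAB1 was at −0.20 under almonertinib, not called, and at −0.38 under the combination, and under paclitaxel COX7A2L was at −0.80 and ATP5IF1 at −0.17, the last not called. The call of ATP5IF1 was also lost without any 1 of control 1, control 3, paclitaxel 1, paclitaxel 2 and paclitaxel 3 (−0.18 to −0.28).

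Of 15 assembly factors of complex I, 1 rose and 8 fell under almonertinib in PC9 (53.3% fell, beside 27.8% of all genes), 2 rose and 8 fell under paclitaxel (53.3% beside 28%), and 0 rose and 9 fell under the combination (60% beside 26%), with medians of −0.33, −0.31 and −0.42. NDUFAF2 fell by 1.45 ± 0.12 and 1.55 ± 0.12 under almonertinib and the combination, and NDUFAF8 fell by 0.96 ± 0.12 and 1.18 ± 0.12 under paclitaxel and the combination. ACAD9 fell by 0.50 ± 0.09 under almonertinib and ECSIT fell by 0.63 ± 0.10 under paclitaxel, while NUBPL, an iron-sulfur carrier, rose by 0.51 ± 0.17 and 0.50 ± 0.17, and TMEM126B rose by 0.52 ± 0.20 under paclitaxel. After trend removal NUBPL was at 0.12 and −0.07 and TMEM126B at −0.05, none of them called, while ACAD9 and ECSIT stayed called at −0.25 and −0.36. The almonertinib call of NUBPL was lost without almonertinib library 2 (0.43), control library 1 (0.47) or control library 3 (0.42), its paclitaxel call without any 1 of control 1, control 3, paclitaxel 1 and paclitaxel 2 (0.41 to 0.47), and that of TMEM126B without any 1 of control 1, control 3, paclitaxel 1 and paclitaxel 2 (0.35 to 0.56).

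Of 33 assembly factors of complexes II to V, 3 rose and 7 fell under almonertinib, 3 rose and 12 fell under paclitaxel, and 0 rose and 11 fell under the combination, when 21.2%, 36.4% and 33.3% of the list fell, beside 27.8%, 28% and 26% of all genes. COX17, a copper chaperone, fell by 0.82 ± 0.10 and 0.80 ± 0.10 under paclitaxel and the combination, COA3 fell by 0.66 ± 0.12 under paclitaxel and COA7 fell by 1.02 ± 0.12 under the combination. Under almonertinib COX19 fell by 1.17 ± 0.13 and COX10, which is needed for heme A, by 0.90 ± 0.12, and SCO2 and COX14 rose by 0.62 ± 0.11 and 0.51 ± 0.11. TTC19 and COX15 rose by 0.70 ± 0.14 and 0.45 ± 0.15 under paclitaxel, the call of COX15 being lost without control library 3 (0.36) or paclitaxel library 1 (0.38). COA3 was at −0.41 with the trend removed.

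Of 13 regulators of respiratory genes, 3 rose and 5 fell under almonertinib, 4 rose and 4 fell under paclitaxel, and 0 rose and 6 fell under the combination. Under paclitaxel 30.8% of the list rose and as many fell, near the 27% and 28% of all genes, and under the combination 46.2% fell beside 26% of all genes. PPRC1, a coactivator related to PGC-1, fell by 1.26 ± 0.09, 0.81 ± 0.08 and 1.24 ± 0.08. NRF1, the nuclear respiratory factor whose motif is marked above, fell by 0.74 ± 0.14 under almonertinib and 0.83 ± 0.14 under the combination. GABPA, the DNA-binding part of GABP, rose by 1.43 ± 0.31 under almonertinib, and LRPPRC, which stabilises mitochondrial transcripts, rose by 1.18 ± 0.18 and 1.29 ± 0.18 under the single drugs. TFAM, which packages mitochondrial DNA, rose by 1.17 ± 0.18 and the mitochondrial polymerase gene POLRMT fell by 0.47 ± 0.09 under paclitaxel, and SLIRP, the partner of LRPPRC, fell by 1.03 ± 0.12 under the combination. After trend removal GABPA was at 0.74 and TFAM at 0.76.

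Of 21 genes of the tricarboxylic acid cycle and pyruvate entry, 5 rose and 8 fell under almonertinib, 5 rose and 6 fell under paclitaxel, and 4 rose and 10 fell under the combination in PC9. The paclitaxel counts are 23.8% and 28.6% of the list, near the 27% and 28% of all genes, and under the combination 47.6% fell beside 26% of all genes. DLD, the shared E3 subunit of the dehydrogenase complexes, rose by 1.15 ± 0.15 and 1.16 ± 0.15 under the single drugs, and IDH2 rose by 0.93 ± 0.13, 0.52 ± 0.12 and 0.91 ± 0.13. OGDH fell by 0.64 ± 0.08 and 0.43 ± 0.08, DLST fell by 0.64 ± 0.09 and the pyruvate carrier gene MPC2 fell by 0.51 ± 0.10. Under the combination MPC1, its partner, fell by 0.99 ± 0.17 and PDHA1 by 0.40 ± 0.08, and PC, pyruvate carboxylase, rose by 0.59 ± 0.10. After trend removal DLD was at 0.70 and 0.60 under the single drugs.

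Of the 13 mitochondrially encoded subunit genes, 11 fell and 0 rose under almonertinib in PC9, with a median of −1.17, while 24 of the 76 nuclear genes rose and 14 fell. Mitochondrially encoded genes took 0.475 to 0.855% of counts in almonertinib libraries against 1.23 to 1.39% in controls, without overlap. MT-ND4 and MT-CO1 fell by 1.51 ± 0.15 and 1.43 ± 0.15. Under paclitaxel 3 fell, with MT-CO3 and MT-CO2 at −0.57 ± 0.18 and −0.50 ± 0.17, and under the combination 2 fell, MT-ND6 by 0.54 ± 0.21 and MT-ND2 by 0.36 ± 0.14. The call of MT-CO3 was lost without paclitaxel library 1 (−0.54), that of MT-CO2 without control library 3 (−0.39), paclitaxel library 1 (−0.43) or paclitaxel library 2 (−0.49), that of MT-ND6 without any 1 of combination 1, combination 2, control 1 and control 3 (−0.38 to −0.54) and that of MT-ND2 in each of the 6 fits without 1 library (−0.31 to −0.40). Against almonertinib 12 of the 13 were higher in combination libraries, with a median of 0.91 (10.3% of all genes were higher), where 1 of the 76 nuclear genes was higher and 30 were lower. In H1975, MT-ND3 was called under the combination (−0.79 ± 0.17), and the call was lost with the trend removed (−0.50) and without any 1 of combination 1, combination 2, combination 3, control 1 and control 2 (−0.69 to −0.91).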

How the data were processed

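Raw read counts per gene were deposited by the authors in 1 table of 24 libraries. Per the submitters' processing notes, reads were aligned with HISAT2 2.2.1 and counted with HTSeq on GRCh38. The HTSeq version, strand setting and annotation are not given in the sources used here. Per the labels' protocols, TRIzol served for extraction and a SMART-RNAseq kit for the libraries. Counts were tested as deposited with edgeR 4.0.16 (R 4.3.3) with TMM factors, filterByExpr, quasi-likelihood tests, Benjamini-Hochberg adjustment within each of 16 comparisons, and calls at an adjusted p under 0.05. Comparisons within a line used its 12 libraries, and those between lines used all 24. Alternatives were DESeq2 1.42.0, RLE factors, other filters, fewer or more libraries in the fit, a replicate block, each library left out, and removal of each library's trend with GC content and transcript length (a spline with 5 degrees of freedom). The scripts were tested on simulated data.

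The members and lists were chosen with earlier results of these data known. Up to 2 rising and 2 falling members per complex and comparison were named by size among called genes with a mean of at least 5 CPM, with core subunits and paralogue sets followed throughout, and up to 2 per direction and list by p. Transcript lengths, GC content and exon overlaps came from GENCODE v29, promoters from RefSeq. As a check of pairing, libraries of the same number deviated together (every r above 0.1) in 2 pairs of groups, PC9 almonertinib with its control (0.119, 0.106 and 0.394) and the H1975 combination with its control (0.110, 0.169 and 0.345), and the labels give no source for such a pairing. Library totals of 14232299 to 24245314 counts limit the precision of genes with few reads.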

Additional observations from a re-analysis of the deposited data

Results flagged for a closer look

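The effects of a drug differed between the lines, PC9 minus H1975, in the edgeR fit of all 24 libraries for the genes below. Up to 2 per complex and direction are given, with the largest differences among called members with a mean of at least 5 CPM. The lists are therefore not complete, and for paclitaxel 17 members in all were lower. Line, single dose and any batch by line cannot be told apart, and explanations were not tested.

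For almonertinib the difference was −3.39 for COX6B2 (−3.99 ± 0.32 in PC9 and −0.63 ± 0.21 in H1975), −0.69 for SDHB (−0.75 ± 0.09 and −0.07 ± 0.14), 0.89 for NDUFA5 (1.01 ± 0.14 and 0.11 ± 0.21) and 0.76 for ATP5MF (0.41 ± 0.12 and −0.37 ± 0.21). With the trend removed 3 of these 4 were still called, NDUFA5 being the exception (0.29). The call of ATP5MF was lost in 8 of the 12 fits without 1 library (0.58 to 0.81).

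For paclitaxel the difference was −1.76 for COX6B2 (−2.36 ± 0.27 in PC9 and −0.60 ± 0.21 in H1975), −1.24 for NDUFA4 (−0.49 ± 0.11 and 0.76 ± 0.24), −1.0 for NDUFA1 (−0.45 ± 0.12 and 0.56 ± 0.24) and −0.99 for ATP5MK (−0.33 ± 0.11 and 0.67 ± 0.27). It was −0.95 for ATP5PD (−0.30 ± 0.13 in PC9 and 0.66 ± 0.16 in H1975), −0.95 for NDUFB6 (−0.51 ± 0.15 and 0.44 ± 0.18), −0.83 for UQCRH (−0.34 ± 0.14 and 0.50 ± 0.23), −0.72 for SDHB (−0.49 ± 0.09 and 0.24 ± 0.14) and −0.59 for UQCRFS1 (−0.51 ± 0.10 and 0.09 ± 0.15). In each of these genes but COX6B2 the H1975 estimate was above 0 and not called. Of the 9, 8 were still called with the trend removed, UQCRH being the exception (−0.67), and UQCRFS1 was at −0.89. Calls were lost for ATP5MK in 9 of the 12 fits without 1 library (−0.57 to −1.01), for NDUFA1 in 5 of the 12 fits without 1 library (−0.68 to −0.95), for UQCRFS1 in 9 of the 12 fits without 1 library (−0.49 to −0.59) and for UQCRH in 10 of the 12 fits without 1 library (−0.56 to −0.86).

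For the combination the difference was −1.60 for COX6B2 (−2.19 ± 0.27 in PC9 and −0.61 ± 0.21 in H1975), −0.92 for NDUFB6 (−0.75 ± 0.15 and 0.16 ± 0.18), −0.83 for NDUFA6 (−0.56 ± 0.10 and 0.26 ± 0.22), −0.81 for UQCR11 (−0.72 ± 0.17 and 0.08 ± 0.20) and −0.80 for SDHB (−0.74 ± 0.09 and 0.05 ± 0.14). It was −0.75 for ATP5PD (−0.44 ± 0.13 in PC9 and 0.30 ± 0.16 in H1975), −0.63 for UQCRFS1 (−0.57 ± 0.10 and 0.06 ± 0.15), −0.44 for ATP5F1A (−0.32 ± 0.08 and 0.10 ± 0.14), 0.86 for NDUFA5 (0.46 ± 0.14 and −0.41 ± 0.21) and 0.79 for COX6A1 (0.21 ± 0.12 and −0.59 ± 0.22). Of these 10, 6 were still called with the trend removed, and NDUFA5 (0.25), NDUFA6 (−0.57), UQCRFS1 (−0.58) and ATP5F1A (−0.20) were not. Calls were lost for ATP5F1A in 11 of the 12 fits without 1 library (−0.36 to −0.47), for UQCR11 in 10 of the 12 fits without 1 library (−0.59 to −0.88), for NDUFA6 in 7 of the 12 fits without 1 library (−0.76 to −0.82), for COX6A1 in 5 of the 12 fits without 1 library (0.66 to 0.79), for UQCRFS1 without H1975 combination library 2 (−0.59), H1975 control library 3 (−0.54) or PC9 combination library 2 (−0.56), for NDUFA5 without H1975 combination library 1 (0.80) or H1975 control library 3 (0.73) and for ATP5PD without PC9 combination library 2 (−0.63).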

How the results depend on the processing

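Values here are totals of members called, higher and lower together, beside those in the report. The shares of all genes are not given in this section, so a total alone does not show a change particular to the members. Of the named genes' values under the alternatives, 3339 kept direction and side of the threshold, 374 lost and 108 gained a call, and 10 reversed. Those that reversed were ATP5MC3 under almonertinib (0.17) and COX5B under the combination (0.18) in PC9 with the trend removed and a block, COX7B (0.0081 and 0.00065 with the block) and NDUFA5 (0.13 and 0.13 with the block) in PC9 combination against paclitaxel with the trend removed, NDUFV1 in PC9 under paclitaxel with the trend removed (0.14 and 0.14 with the block), and NDUFV1 in H1975 under almonertinib without the libraries that stand apart and without all 6 of opposite GC trend (−0.41 each). DESeq2 gave 1 for H1975 paclitaxel and 28 for the paclitaxel difference between lines.

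With all 24 libraries in the fit the PC9 totals were 17 for almonertinib, 13 for paclitaxel, 18 for the combination, 4 for the combination against almonertinib, 3 for the combination against paclitaxel and 9 for the interaction, and the H1975 totals were 2 for paclitaxel, 6 for the combination against paclitaxel and 2 for the interaction. This fit takes 1 spread from both lines. With only the groups compared in the fit, the totals were 15 and 31 for the PC9 combination against almonertinib and against paclitaxel, 7 and 5 for the H1975 combination against control and against paclitaxel, and 3 and 22 for the almonertinib and combination differences between lines. The strict filter left 1 for the H1975 combination.

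With the trend removed the totals were 31 for the PC9 interaction, 1 each for H1975 almonertinib, paclitaxel and interaction, 4 for the H1975 combination, 17 and 20 for the almonertinib and combination differences, and 60 for PC9 control against H1975 control. With the trend removed and a replicate block they were 26 for the PC9 combination against paclitaxel, 35 for the PC9 interaction, 1 each for H1975 almonertinib, paclitaxel and interaction, 16 and 21 for the almonertinib and combination differences, and 60 for the controls. The replicate block alone left 0 for the H1975 combination and changed no other total by over 1.5 times. Every library deviated most like its own number in 1 of 12 pairs of groups, PC9 control and paclitaxel.

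Without the libraries that stand apart, an alternative chosen after the data were seen, the totals were 28 for the PC9 combination against paclitaxel, 32 for the PC9 interaction, 35, 26 and 31 for H1975 almonertinib, paclitaxel and combination, 20 and 57 for the H1975 combination against almonertinib and against paclitaxel, 36 for the H1975 interaction, and 28, 46 and 36 for the almonertinib, paclitaxel and combination differences. Without all 6 libraries of opposite GC trend, also chosen after the data were seen, they were 33 for the PC9 interaction, 32, 26 and 23 for H1975 almonertinib, paclitaxel and combination, 18 and 53 for the H1975 combination against almonertinib and against paclitaxel, 33 for the H1975 interaction, and 27, 46 and 30 for the almonertinib, paclitaxel and combination differences. In the PC9 combination against paclitaxel this fit had 15 members higher and 9 lower. Leaving out 1 library at a time gave 28 to 44 for PC9 almonertinib, 22 to 35 for PC9 paclitaxel, 24 to 34 for the PC9 combination, 18 to 43 and 8 to 11 for the PC9 combination against almonertinib and against paclitaxel, and 15 to 32 for the PC9 interaction. In H1975 it gave 0 to 1 for almonertinib, 0 to 3 for paclitaxel, 0 to 1 for the combination, 0 to 3 and 0 to 14 for the combination against almonertinib and against paclitaxel, and 0 to 5 for the interaction. For the differences between lines it gave 4 to 10 for almonertinib, 6 to 35 for paclitaxel and 6 to 12 for the combination, and 37 to 39 for the controls. The causes of these changes were not tested. NDUFV2, NDUFA7 and COX8C had too few counts to be tested, and the cause of their low counts was not tested.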

Other observations

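Among the 79 members, 13 had a mean below 15 CPM per kb over the 24 libraries, and 10 of these share at least 5% of their exon bases with another gene on the same strand in GENCODE v29. Of the other 66 members, 10 do. Both thresholds were chosen after the levels were seen, and the part of the overlap in the levels was not tested. The remaining low members were SDHA, UQCRHL and COX8C. In PC9 the median fold changes of the 24 tested members whose promoter window held a motif were −0.37 for the combination against almonertinib and −0.08 for the combination against paclitaxel, and those of the 37 without one were −0.30 and −0.03.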
